A study of Mus musculus with 9 samples.

Results

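The 33 genes described here code for enzymes and regulators of cholesterol and fatty acid synthesis. They were chosen by symbol from a list, every symbol matched 1 gene, and they are 33 of the 38203 genes in the expression table. Of these, 7 act before squalene and 10 make squalene (Fdft1) or lead from it to cholesterol. Another 6 control the pathway or carry sterols, 4 build fatty acids, and 6 desaturate, elongate or store them. RNA from the epidermis of E18.5 mouse embryos of mixed C57BL6/129Sv background was sequenced in 9 libraries. WT had 2 libraries, embryos without Esrp1 (KO) had 3, embryos without Esrp1 and with 1 intact copy of Esrp2 (KH) had 2, and embryos without either gene (DKO) had 2. The epidermis was freed from the dermis with trypsin, so each library mixed basal, spinous, granular and cornified layers with hair follicle cells. Esrp1 and Esrp2 are epithelial RNA-binding proteins that control splicing. The Esrp1 null allele came from germline excision of exons with Zp3-Cre, and the Esrp2 allele was a full replacement of the gene by a LacZ and neomycin cassette, so that both deletions were present in every tissue of the embryo. By their labels the controls were WT, although the extraction text describes them as lacking Esrp2, whose transcript they expressed.

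Cholesterol is made from acetyl-CoA through mevalonate, farnesyl diphosphate and squalene, and the same acetyl-CoA pool feeds fatty acid synthesis. When sterols are scarce, Scap escorts the SREBP transcription factors (Srebf1 and Srebf2) to the Golgi for activation, and Insig proteins hold them back when sterols are plentiful. In the epidermis, cholesterol, free fatty acids and ceramides are secreted by the granular layer and form the water barrier of the skin.

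For 26 of the 33 genes a promoter was present in the RefSeq table for GRCm38.p6, in 34 windows from 250 bases before to 50 after a start site. The windows were searched on both strands for the sterol response element TCACNCCAC, the NF-Y box CCAAT and the GC box GGGCGG, each a string of letters and not a shown binding site. The first was in 2.94% of these windows, against 1.24% of all 32851 windows in the table, and its only match was in Hmgcs1, where its first base was 137 bases before the start site. CCAAT was in 61.8% of the windows, against 37.4% of all, and GGGCGG in 70.6% against 35.7%. Bases upstream of the gene are shown for Hmgcs1, the gene with the sterol response element, and for Hsd17b7 and Insig2, whose DKO and WT libraries were furthest apart in ratio among the sterol genes, with matched letters of any of the 3 motifs (or of their reverse complements) in capitals. Hmgcs1 is read from chr13:119690101-119690350 on the plus strand, Hsd17b7 from chr1:169969242-169969455 and Insig2 from chr1:121332590-121332839, both on the minus strand.
Hmgcs1: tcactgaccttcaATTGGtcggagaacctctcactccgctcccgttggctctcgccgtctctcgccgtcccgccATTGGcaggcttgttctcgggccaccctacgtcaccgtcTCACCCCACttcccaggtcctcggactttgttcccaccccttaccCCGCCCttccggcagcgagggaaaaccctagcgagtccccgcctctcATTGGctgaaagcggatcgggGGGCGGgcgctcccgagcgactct
Hsd17b7: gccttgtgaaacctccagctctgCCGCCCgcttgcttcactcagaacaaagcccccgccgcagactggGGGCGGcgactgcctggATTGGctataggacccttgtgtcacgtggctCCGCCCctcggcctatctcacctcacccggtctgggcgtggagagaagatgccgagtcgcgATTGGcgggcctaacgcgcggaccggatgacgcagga
Insig2: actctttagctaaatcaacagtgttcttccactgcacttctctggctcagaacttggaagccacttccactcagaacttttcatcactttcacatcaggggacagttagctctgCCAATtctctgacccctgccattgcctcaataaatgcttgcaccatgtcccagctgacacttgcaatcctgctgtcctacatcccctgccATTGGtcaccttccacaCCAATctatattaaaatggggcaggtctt

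All levels are FPKM, fragment numbers corrected for transcript length and library size. Differences were tested with limma on log2(FPKM + 1) over 16897 genes with an average above 0.1 FPKM in at least 1 genotype, a filter that all 33 genes passed, and a call required a Benjamini-Hochberg adjusted p under 0.05 and average FPKM that differed by over 2-fold. The study states its sequencing depth by genotype, but the files used here give no read counts per gene, so no counting error could be set beside a value. Summed FPKM ran from 713318 to 1130713 per library. Esrp2 was at 118 and 136 FPKM in WT and at 0.0843 and 0.0463 in DKO, and Esrp1, whose remaining exons are still counted, was at 119.0 and 142 FPKM in WT and between 18.15 and 55.1 in the 7 libraries of the other genotypes. Keratinocyte genes dominated every library, with 6 spinous markers summing to between 31890 and 85780 FPKM, while 5 endothelial markers summed to at most 0.34 FPKM and 6 skeletal muscle markers to at most 1.02.

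None of the 33 genes passed the test between DKO and WT, where 123 of all genes tested were called (0.728%). Fdps came closest, with an adjusted p of 0.139 from limma. At an unadjusted p below 0.05 there were 5 of the 33, 1 higher in DKO (Fdps) and 4 lower (Hsd17b7, Insig2, Acacb and Scd1), beside 13.8% of all genes. The median difference of the 33 genes was -0.26 on the log2 scale, against 0.02 for all genes, but it was -0.04 without DKO replicate 2 and -0.11 without WT replicate 2. The DKO libraries lay entirely above both WT libraries for 6 genes and entirely below for 13, beside 27.8% and 26.4% of all genes. Without DKO replicate 2, and also without WT replicate 2, the number above was 11. Without DKO replicate 1, Mvk, Ebp, Sc5d, Acaca, Scd2 and Elovl6 also lay below WT. With all libraries and a ratio of at least 1.5 as well, 3 genes lay above (Pmvk, Fdps and Fads1) and 5 below (Sqle, Hsd17b7, Insig2, Acacb and Scd1), beside 15.6% and 14.4% of all genes. These numbers grew too, above WT without DKO replicate 2 and below WT without DKO replicate 1. The standard errors of the 33 differences ran from 0.16 to 0.51 on the log2 scale with a median of 0.32.

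**Figure D1:**
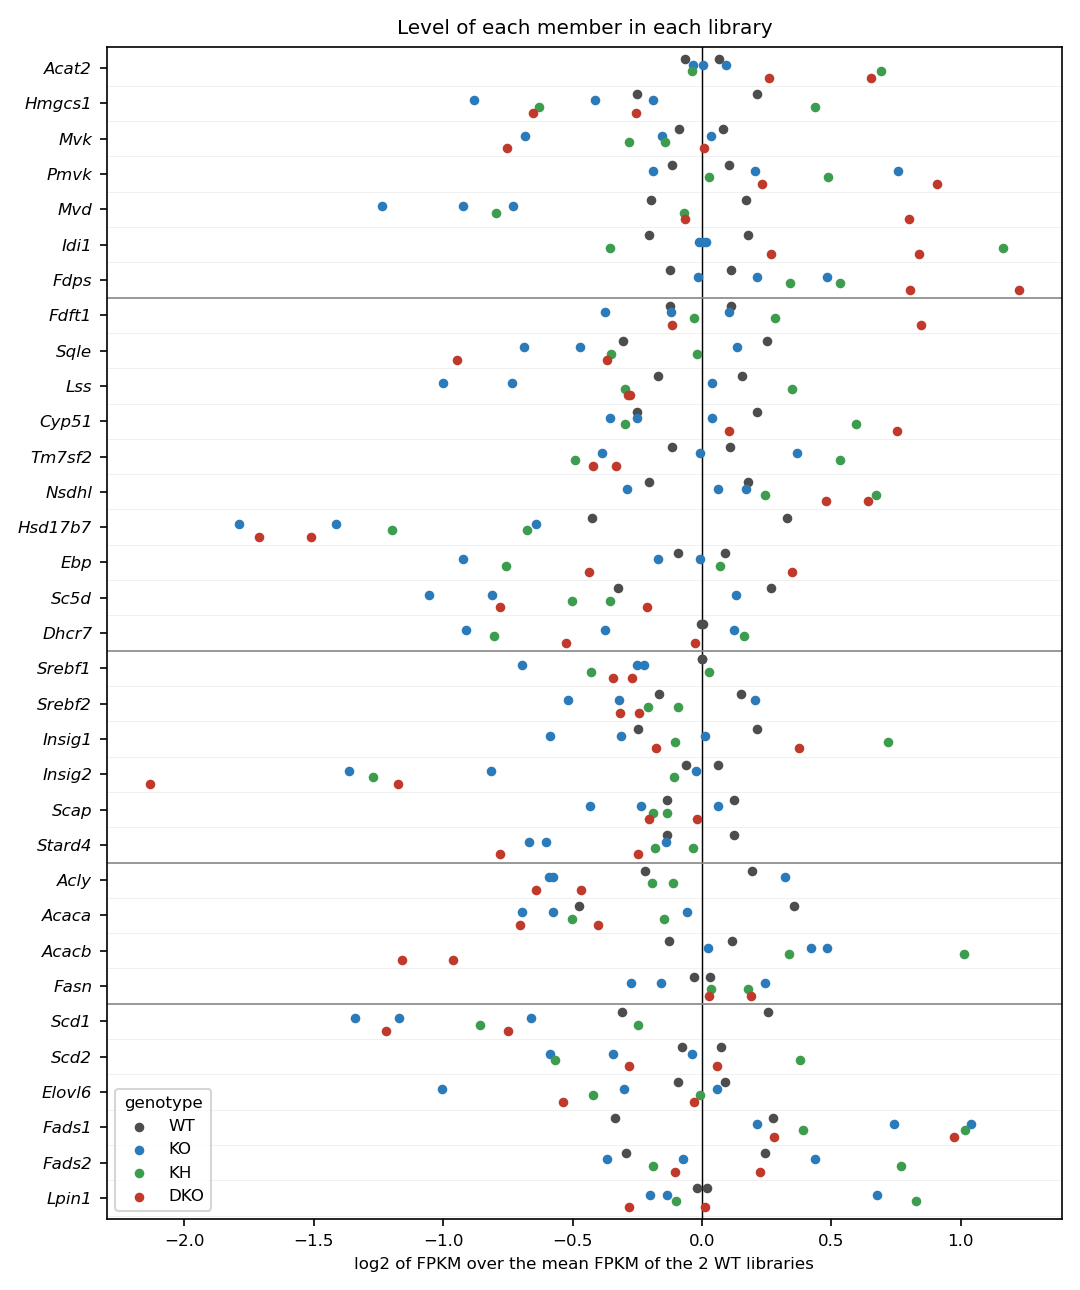
Each point is 1 library, with the gene on the vertical axis and log2 of its FPKM over the mean of the 2 WT libraries on the horizontal axis; grey lines part the 5 functional groups. Points of different genotypes overlap in most lines, and the DKO points stand apart from all others to the right for Fdps and to the left for Acacb; for Hsd17b7 and Insig2 they are left of WT but overlap KO.

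The steps before squalene had a median difference of 0.45 between DKO and WT, and 5 of the 7 averages were higher in DKO. The 2 DKO libraries differed in this: the median was 0.23, with 4 averages higher, without DKO replicate 1 and 0.80, with 6 higher, without DKO replicate 2. Fdps, which makes farnesyl diphosphate (chromosome 3, 89093588 to 89101959, minus strand, GRCm38), was at 276 and 206 FPKM in DKO, 171 and 149 in KH, 137, 165 and 117 in KO, against 128 and 108 in WT. Both DKO libraries were above the other 7, and both KH libraries were above both WT libraries. The average was 2.04 times that of WT, a log2 difference of 1.01 (standard error 0.25). Fdps was called in 1 of the alternatives, the fit that weights libraries by their noise, with an adjusted p of 0.0393 from limma. That adjusted p ran from 0.0393 to 0.223 across the settings that did not leave out a single library, 1 of which fitted only DKO and WT. Over all alternatives the log2 difference of Fdps ran from 0.8 to 1.22.

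Pmvk, the phosphomevalonate kinase, was at 136.5 and 85.5 FPKM in DKO and 78.2 and 67.2 in WT, but KO spanned 63.7 to 123 FPKM, so that the DKO libraries did not stand apart from KO. Acat2, which joins acetyl-CoA units at the head of the pathway, was at 48.3 and 36.7 FPKM in DKO and 32.1 and 29.3 in WT, with a KH library at 49.5. Idi1, the isopentenyl diphosphate isomerase, sat just under the ratio of 1.5 and was variable within KH, at 67.4 and 23.6 FPKM. It was 53.8 and 36.3 FPKM in DKO, against 26.1 and 34.1 in WT and from 29.9 to 30.45 FPKM in KO. For these 3 genes the gap between DKO and WT was of the same order as the spread within another genotype. Hmgcs1, the HMG-CoA synthase whose promoter held the sterol response element, was not higher in DKO. It was at 84.6 and 64.1 FPKM there, 137 and 65.2 in KH, 75.7, 54.8 and 88.5 in KO, against 84.8 and 117 in WT, so that a KH library was the highest of all and its partner among the lowest. The mevalonate kinase Mvk overlapped, with averages of 65.4 FPKM in DKO and 81.85 in WT.

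Mvd, the mevalonate diphosphate decarboxylase, was singled out after its values were seen because it separated DKO from KO rather than from WT. It was at 74.0 and 40.7 FPKM in DKO, 40.6 and 24.5 in KH, 22.4, 18.1 and 25.7 in KO, against 37.2 and 47.9 in WT. Both DKO libraries were above all 3 KO libraries, and all KO libraries were below both WT libraries, whereas DKO and WT overlapped. The log2 difference of DKO from KO was 1.29 (standard error 0.31, ratio 2.60), with an adjusted p of 0.199 from limma. In the authors' table the position of Mvd is a merged locus of 4435.4 kb on chromosome 8 that 171 other genes share, while the gene itself spans 9.8 kb (122433601 to 122443422, minus strand, GRCm38); the effect of this on its FPKM was not tested.

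**Figure D2:**
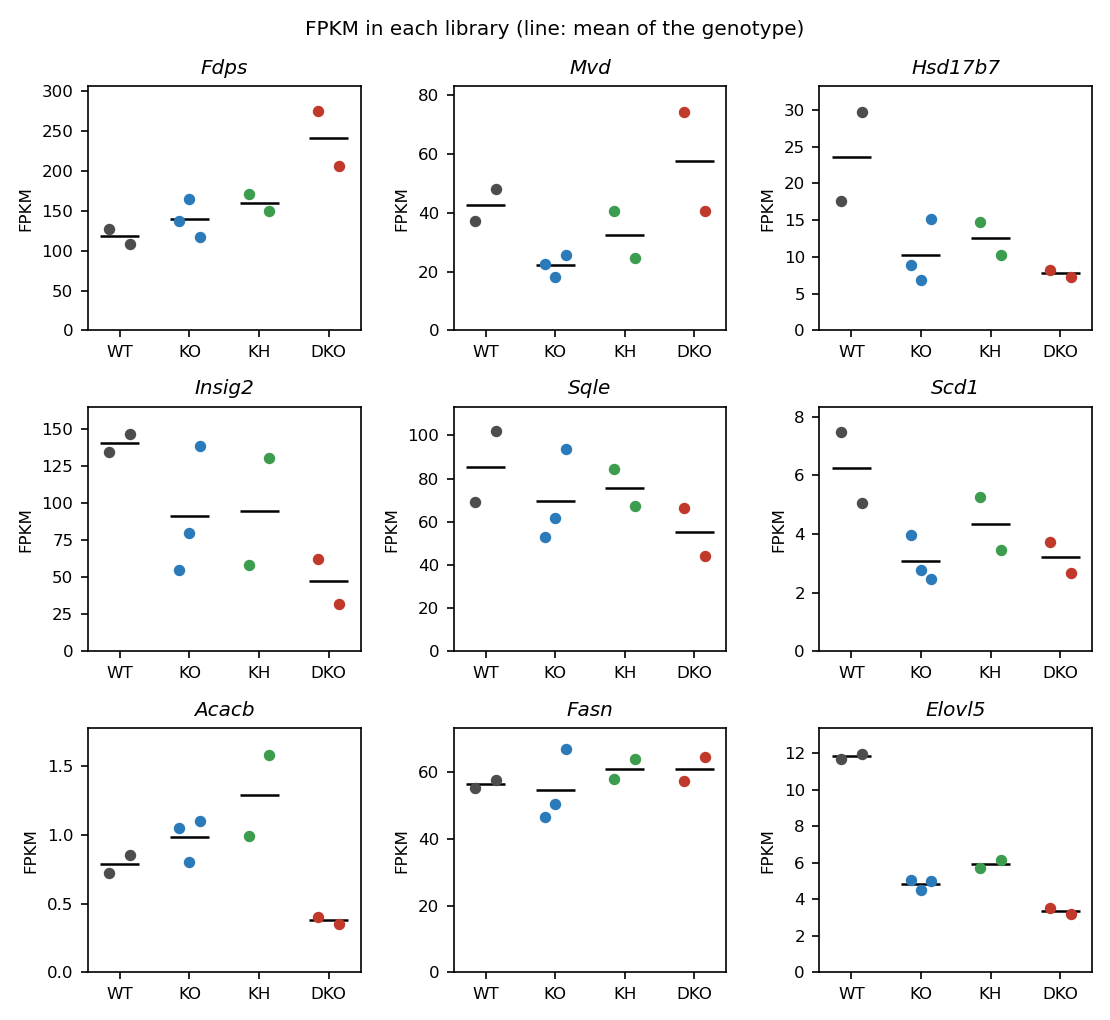
FPKM on a linear axis from 0 for 8 members and for Elovl5, with 1 point per library by genotype and a line at the mean of each genotype. By these means, Fdps is highest in DKO, Mvd is lowest in KO, Hsd17b7 and Scd1 are highest in WT, Acacb is lowest in DKO, and Fasn is level, with all libraries between 46.7 and 66.9 FPKM.

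From squalene synthase (Fdft1) to cholesterol 4 of the 10 averages were higher in DKO than in WT and 6 lower, with a median difference of -0.27. Here too the DKO libraries differed, since leaving out DKO replicate 1 gave a median of -0.41 and leaving out DKO replicate 2 gave -0.10, while leaving out WT replicate 2 gave -0.15. Hsd17b7, a sterol ketoreductase of the demethylation complex (chromosome 1, 169949535 to 169969241, minus strand, GRCm38), was at 8.28 and 7.21 FPKM in DKO, 14.8 and 10.3 in KH, 8.86, 6.84 and 15.1 in KO, against 17.6 and 29.6 in WT. All 7 libraries without Esrp1 were below both WT libraries, and DKO overlapped KO. The DKO average was 0.328 of the WT average, a log2 difference of -1.45 (standard error 0.38) with an adjusted p of 0.154 from limma. The same gene differed from WT by -1.15 in KO (adjusted p of 0.853 from limma) and by -0.84 in KH (0.98); all 3 comparisons share the WT libraries, which themselves differed widely.

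Sqle, the squalene epoxidase and a rate-controlling step, was at 66.4 and 44.4 FPKM in DKO, 84.4 and 67.1 in KH, 53.1, 61.7 and 93.9 in KO, against 69.2 and 102 in WT. The lower of the WT libraries was close to the higher DKO library, and the log2 difference was -0.62 (standard error 0.33, adjusted p of 0.44 from limma). Lss, which closes the sterol rings, Tm7sf2, a sterol reductase, and Dhcr7, which can make cholesterol in the last step, also lay below WT in both DKO libraries, by 0.26 to 0.36 on the log2 scale. Tm7sf2 shares its locus in the authors' table with 3 other genes, and Fdft1, the squalene synthase, with Ctsb. Fdft1 had 1 high DKO library, at 85.7 FPKM, while the second, at 43.9 FPKM, was within the WT range of 43.7 to 51.5. Cyp51, the lanosterol demethylase, showed the same split, with 50.7 and 32.4 FPKM in DKO and 25.3 and 34.9 in WT. Ebp and Sc5d, a sterol isomerase and a desaturase, overlapped as well.

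Nsdhl, a dehydrogenase of the demethylation complex, was the only 1 of the 10 whose DKO libraries both lay above WT. It was at 25.9 and 23.2 FPKM in DKO, 26.5 and 19.7 in KH, 17.4, 13.6 and 18.7 in KO, against 14.4 and 18.8 in WT, a log2 difference of 0.55 between DKO and WT (standard error 0.24, adjusted p of 0.365 from limma). KH lay above WT as well, and KO did not. Nsdhl and Ebp are on the X chromosome, and Xist, the RNA of the inactive X, was expressed in the 3 KO libraries and WT replicate 2 (76.2 to 180.4 FPKM) and absent or nearly so elsewhere (0.178 FPKM or less). The part of embryo sex in the Nsdhl difference was not tested.

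**Figure D3:**
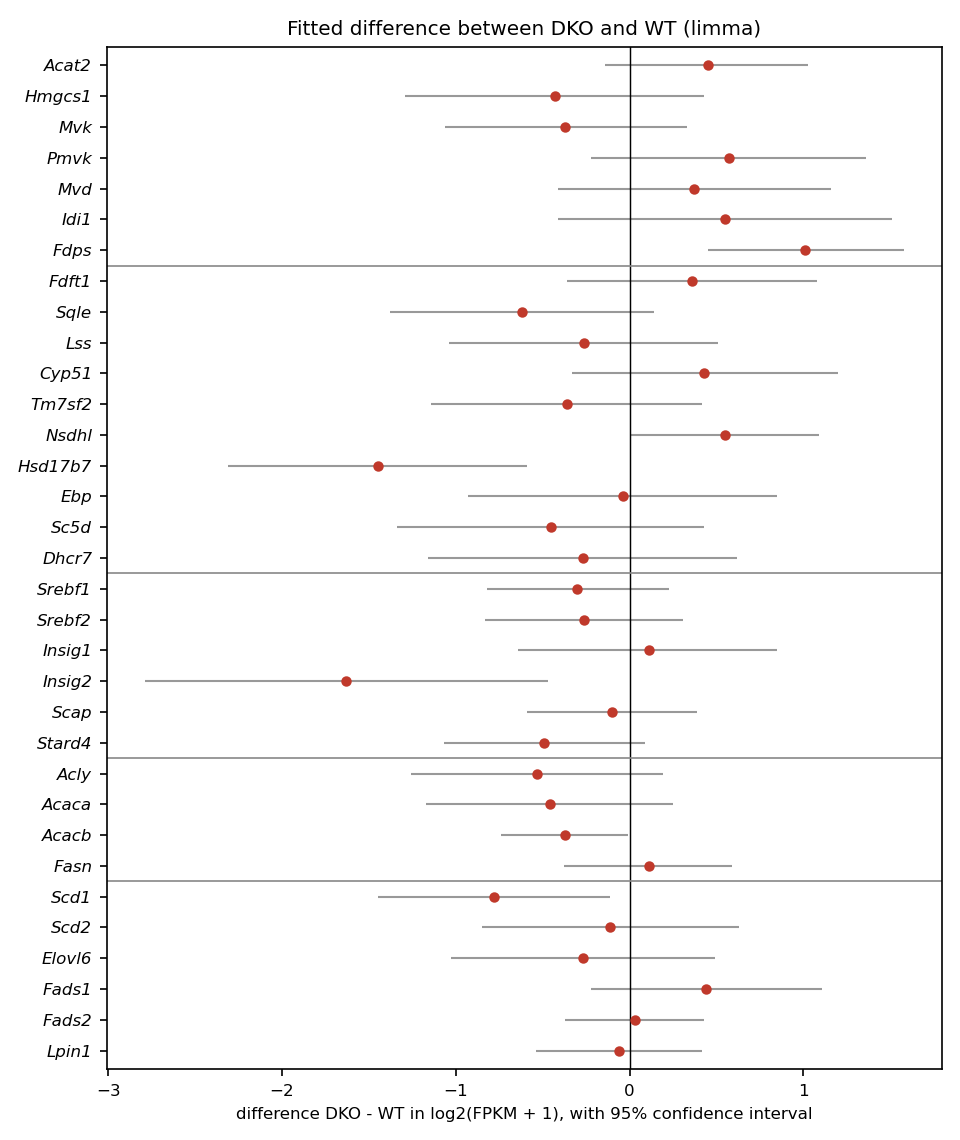
The fitted difference between DKO and WT on the scale of log2(FPKM + 1) for each gene, with its 95% confidence interval as a line. The intervals of Fdps, Hsd17b7, Insig2, Acacb and Scd1 leave out 0 before adjustment, and the other intervals reach or cross it.

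Among the regulators, Insig2 had the largest difference of all 33 genes between DKO and WT on the log2 scale. This retention protein of the endoplasmic reticulum (chromosome 1, 121304353 to 121332589, minus strand, GRCm38) was at 62.3 and 32.1 FPKM in DKO, 58.4 and 130.5 in KH, 54.7, 79.9 and 138 in KO, against 135 and 147 in WT. Both DKO libraries were far below WT, but KH and KO each held libraries near the DKO level and 1 near the WT level. The log2 difference was -1.63 (standard error 0.51, ratio 0.335), with an adjusted p of 0.224 from limma. That adjusted p ran from 0.0545 to 0.316 across the settings that did not leave out a single library, 1 of which fitted only DKO and WT. Over all alternatives the log2 difference of Insig2 ran from -2.1 to -1.16. Insig1, the other Insig gene, did not share this pattern, with 13.8 and 9.37 FPKM in DKO and 8.94 and 12.3 in WT. Its difference of 0.11 turned negative without DKO replicate 1 or WT replicate 1 and ranged from -0.15 to 0.36 over the alternatives.

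The fitted differences of the transcription factors themselves were small. Srebf2, the main driver of sterol genes, was at 28.1 and 29.6 FPKM in DKO and 31.2 and 38.9 in WT, and Srebf1, the main driver of fatty acid genes, at 22.6 and 21.5 in DKO and 27.4 and 27.3 in WT. Both lay below WT in both DKO libraries, by 0.26 and 0.30 on the log2 scale, and both were lowest in KO replicate 2 (24.5 and 16.9 FPKM). The 95% interval for Srebf2 ran from -0.83 to 0.31 and that for Srebf1 from -0.82 to 0.23. Srebf1 shares its locus in the authors' table with Rai1 and another gene. Scap, the escort protein, was at 14.8 and 16.8 FPKM in DKO and 15.5 and 18.55 in WT, and over all 9 libraries its highest level was 1.47 times its lowest. Stard4, a sterol carrier, was at 30.35 and 21.0 FPKM in DKO and 32.8 and 39.3 in WT (log2 difference -0.49, standard error 0.25).

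Of the 4 fatty acid synthesis genes 3 averages were lower in DKO than in WT, and Fasn, the fatty acid synthase, was not. Fasn was at 57.55 and 64.5 FPKM in DKO, 58.0 and 63.9 in KH, 46.7, 50.6 and 66.9 in KO, against 55.4 and 57.7 in WT, with a 95% interval for the log2 difference between DKO and WT from -0.38 to 0.59. Acly, which supplies cytosolic acetyl-CoA, was at 69.0 and 77.9 FPKM in DKO and 92.4 and 123 in WT, and KO replicate 3, at 134.5, was above both. Acaca, the acetyl-CoA carboxylase of the cytosol, overlapped, since WT itself spanned 10.5 to 18.7 FPKM.

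Acacb, the carboxylase isoform tied to mitochondria, was the 1 gene of the 33 with both DKO libraries below all 7 other libraries. It was scarce, at 0.403 and 0.352 FPKM in DKO, 0.993 and 1.58 in KH, 1.05, 0.7998 and 1.10 in KO, against 0.7205 and 0.852 in WT. The DKO average was 0.48 of the WT average, 0.384 of KO and 0.293 of KH. On the scale of log2(FPKM + 1), which understates differences of low genes, these were -0.37, -0.52 and -0.72, with adjusted p of 0.355, 0.311 and 0.202 from limma. FPKM does not give the number of fragments behind values this low.

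Scd1, a stearoyl-CoA desaturase typical of sebaceous glands, was higher in WT than in most other libraries. It was at 3.72 and 2.68 FPKM in DKO, 5.27 and 3.45 in KH, 3.95, 2.78 and 2.47 in KO, against 7.46 and 5.04 in WT. DKO and KO both lay below WT and KH overlapped it, with log2 differences of -0.78 in DKO (standard error 0.29, adjusted p of 0.301 from limma) and -0.83 in KO (standard error 0.27, adjusted p of 0.853). Of 7 sebaceous gland markers 6 were tested and none was called: the averages of Awat1, Awat2, Scd3 and Elovl3 were lower in DKO than in WT (ratios 0.688, 0.45, 0.352 and 0.157) and those of Cidea and Krt79 higher (4.92 and 1.4). Their summed level, most of it Krt79, was 167 and 139 FPKM in DKO, 62.2 and 163 in KH, 70.5 to 116 in KO, and 131.5 and 85.1 in WT, while the melanocortin receptor Mc5r was at most 0.0707 FPKM. The part of sebaceous cells in the Scd1 difference was not tested. Scd2, the main desaturase of the epidermis by level, was at 120.2 and 94.9 FPKM in DKO and 121.5 and 109.6 in WT, so that the ranges overlapped.

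Fads1, a desaturase of polyunsaturated fatty acids, was at 2.04 and 3.31 FPKM in DKO, 3.41 and 2.21 in KH, 3.46, 2.815 and 1.95 in KO, against 2.03 and 1.33 in WT. DKO replicate 1 and WT replicate 1 were at nearly the same level. Fads2, Lpin1 and Elovl6, for desaturation, glycerolipid synthesis and elongation, overlapped between DKO and WT, with differences between -0.27 and 0.03 on the log2 scale. The 7 adipocyte markers summed to 6.905 and 17.96 FPKM in WT and to between 30.4 and 109.8 in the other genotypes, nearly all of it Fabp4; Retn was at most 0.555 FPKM, and Plin1, Adipoq, Cidec, Cfd and Lep were at most 0.0925 FPKM in every library. The part of such cells in the levels of these genes was not tested.

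Loss of Esrp1 alone or with 1 copy of Esrp2 gave no call among the 33 genes either. KO and KH each had 5 calls against WT among all genes (0.0296% in each). For KO the median difference of the 33 genes was also -0.26, against 0 for all genes, and 24 of the 33 averages were below WT; 5 genes lay entirely below WT (Mvd, Hsd17b7, Srebf1, Stard4 and Scd1) and 0 above, beside 12.1% and 12.6% of all genes. Without KO replicate 3 the number below was 21 and without WT replicate 1 it was 19, while leaving out a library makes such separation easier. At an unadjusted p below 0.05 there were 3 (Mvd, Hsd17b7 and Scd1, all lower), beside 4.53% of all genes. The KO median moved to -0.41 when KO replicate 3 was left out, to -0.11 when KO replicate 1 was, and to -0.06 when WT replicate 2 was. For KH the median difference of the 33 genes from WT was -0.09 and had no stable direction, since it ran from -0.19 without WT replicate 1 to 0.07 without WT replicate 2 and was 0.01 without KH replicate 2 and 0.02 with FPKM rescaled to TPM. In KH 0 of the 33 genes had an unadjusted p below 0.05, beside 3.72% of all genes, with 5 genes above WT (Fdps, Nsdhl, Acacb, Fasn and Fads1) and 4 below (Mvk, Hsd17b7, Sc5d and Insig2), beside 15.3% and 16.6% of all genes. Leaving out a KH library raised both numbers, to 15 above without KH replicate 2 and to 17 below without KH replicate 1.

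No member was called between DKO and KO or between DKO and KH. Against KO, 108 of all genes were called (0.639%), and the 6 members that lay above KO were Acat2, Mvd, Idi1, Fdps, Cyp51 and Nsdhl, all of them sterol genes, with Acacb the 1 below; the shares over all genes were 11.2% above and 9.88% below. Of these, Cyp51 had a log2 difference of 0.60 (standard error 0.31, adjusted p of 0.852 from limma) and Fdps 0.78 (standard error 0.23, adjusted p of 0.331). At an unadjusted p below 0.05 there were 4 of the 33, with Mvd, Fdps and Nsdhl higher and Acacb lower, beside 6.8% of all genes. Without KO replicate 3 there were 14 above. Xist was at 76.2 to 180.4 FPKM in all 3 KO libraries and at most 0.178 in both DKO libraries, so that genotype and embryo sex cannot be told apart in this comparison, the X-linked Nsdhl included. Against KH, 72 of all genes were called (0.426%), Mvd and Fdps lay above KH, and Sqle, Hsd17b7, Srebf2, Stard4, Acly and Acacb below, beside 14.3% and 14.5% of all genes. These counts moved to 9 above without KH replicate 1 and 18 below without KH replicate 2. Fdps and Acacb had an unadjusted p below 0.05, 2 of the 33 beside 5.71% of all genes.

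The extreme values of the 33 genes were spread unevenly over the libraries. KH replicate 1 and WT replicate 2 each held the highest value for 9 of the 33 genes, beside 11% and 16% of all genes, and DKO replicate 1 for 6, beside 13.6%. KO replicate 2 held the lowest value for 11 of the 33 and KO replicate 1 for 8, beside 12.5% and 9.69% of all genes. Summed over the 7 steps before squalene, DKO replicate 1 reached 755 FPKM and DKO replicate 2 reached 518, while the WT libraries were at 463 and 490.5, KO between 411 and 497, and KH at 607 and 469. From squalene synthase on, the sums were 468 and 314 FPKM in DKO and 395 and 476 in WT. The 2 DKO libraries thus lay on either side of the lower WT library.

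**Figure D4:**
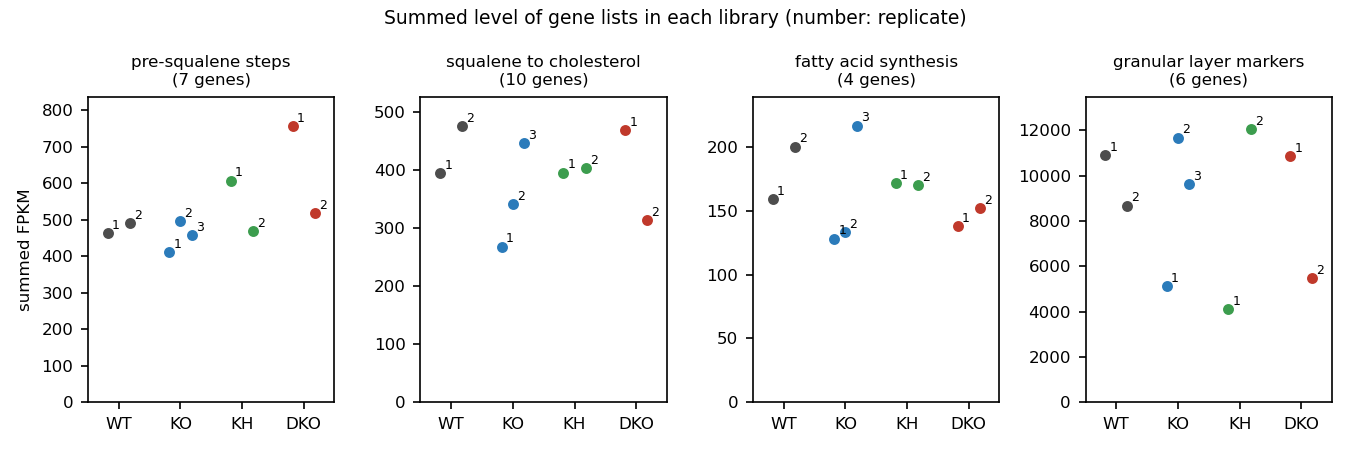
Summed FPKM, on axes from 0, of 3 groups of synthesis genes and of 6 granular layer markers, with 1 point per library labelled by replicate. Granular markers are low in DKO replicate 2, KH replicate 1 and KO replicate 1, the steps before squalene are highest in DKO replicate 1, and the fatty acid genes are highest in KO replicate 3.

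The layer composition of the libraries also varied, and a smaller share of one layer cannot be told apart from less RNA of its genes per cell. The granular markers Lor, Flg, Flg2, Hrnr, Ivl and Tgm3 summed to 10870 and 5473 FPKM in DKO, 4114 and 12050 in KH, 5133, 11670 and 9605 in KO, against 10900 and 8674 in WT. Spinous markers (6 genes) summed to 60820 and 35250 FPKM in DKO, 38460 and 61000 in KH, 31890 to 85780 in KO, and 62350 and 75370 in WT. Of these, Krt1, Krt10, Dsg1a and Dsc1 lay entirely below WT in DKO (ratios 0.689, 0.5, 0.353 and 0.227, none called). Sbsn overlapped WT, as did Krtdap, whose average was higher in DKO (15800 FPKM, against 14310 in WT). Basal markers (7 genes) summed to 6419 and 7406 FPKM in DKO, 4137 and 7576 in KH, 5352 to 8537 in KO, and 5278 and 5349 in WT, with Krt5, Krt14 and Itga6 entirely above WT in DKO and Krt15 and Trp63 below. DKO thus lay below WT in the spinous sum, with DKO replicate 1 close to WT replicate 1, and above WT in the basal sum. The granular sums overlapped, and 3 of the 6 granular markers (Flg2, Hrnr and Tgm3) lay entirely below WT. The 3 libraries with the lowest granular sums, DKO replicate 2, KH replicate 1 and KO replicate 1, also held the 3 lowest values of Mvk, Tm7sf2, Ebp, Dhcr7, Insig2 and Elovl6, that is 18.2% of the 33 genes beside 9.5% of all genes. They held the 3 highest values of Fads1 alone (3.03%, beside 9.49% of all genes). The part of layer composition in the differences between DKO and WT was not tested. Melanocyte markers (5 genes) summed to 93.1 and 204 FPKM in DKO, 148.1 and 55.86 in KH, 66.44 to 80.45 in KO, and 46.6 and 42.4 in WT. Every library without Esrp1 was thus above both WT libraries in this sum. Red blood cell markers (5 genes) summed to 367.8 and 1274 FPKM in DKO, 13.2 and 145.4 in KH, 91.01 to 497.1 in KO, and 530.4 and 81.03 in WT. Immune markers (6 genes) summed to 30.89 and 15.94 FPKM in DKO and 15.3 and 6.715 in WT, so that DKO lay above WT, and KH spanned 12.7 to 39.06. Dermal fibroblast markers (7 genes) summed to between 44.34 and 150.4 FPKM over the 9 libraries, and DKO and WT overlapped in them. The part of these other cells in the differences was not tested.

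Other genes of the same pathways gave 1 call. Of 7 further sterol synthesis genes 6 were tested and none was called in any comparison, with a median difference of -0.28 between DKO and WT (-0.18 without WT replicate 2). Among 13 genes of cholesterol efflux, esterification and sulfation none was called. In DKO 2 of them lay entirely above WT and 3 entirely below, beside 27.8% and 26.4% of all genes. Abcg1 was at 0.809 and 1.01 FPKM in DKO and 2.35 and 1.86 in WT, and KO spanned 0.904 to 2.39. Ch25h was at 0.464 and 0.303 FPKM in DKO and 0.163 and 0.126 in WT. Sult2b1, the sulfotransferase that makes cholesterol sulfate in the granular layer, was at 377 and 248 FPKM in DKO and 255 and 237 in WT.

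Of 20 further fatty acid genes 19 were tested, and Elovl5, an elongase of polyunsaturated fatty acids (chromosome 9, 77917364 to 77984519, plus strand, GRCm38), was lower in DKO than in WT. Elovl5 was at 3.55 and 3.19 FPKM in DKO, 5.72 and 6.13 in KH, 5.04, 4.515 and 5.005 in KO, against 11.7 and 12.0 in WT. The 4 genotypes did not overlap in it: DKO was lowest, KO and KH lay between, and WT was highest. The log2 difference of DKO from WT was -1.55 (standard error 0.19, ratio 0.285) with an adjusted p of 0.00793 from limma; KO and KH differed from WT by -1.13 and -0.89 with adjusted p of 0.2 and 0.697. The call was lost with FPKM rescaled to TPM (adjusted p of 0.0645 from limma), with the replicate number as a block (0.0677), and without DKO replicate 1 (0.0553), DKO replicate 2 (0.0661), WT replicate 1 (0.103) or WT replicate 2 (0.121), although its difference stayed between -1.78 and -1.49.

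The 19 fatty acid genes, Elovl5 included, had a median difference of -0.46 between DKO and WT, which was -0.76 without DKO replicate 1 and -0.19 without DKO replicate 2, with 11 entirely below WT and 3 above, beside 26.4% and 27.8% of all genes. Gpam, which starts glycerolipid synthesis, was at 3.04 and 3.38 FPKM in DKO and 8.67 and 16.1 in WT, and KO alone spanned 2.77 to 15.01. Acsl1, an acyl-CoA synthetase, was at 78.8 and 55.6 FPKM in DKO and 138 and 176 in WT (ratio 0.428, adjusted p of 0.252 from limma). Dgat2, a triglyceride synthase, was at 184 and 128 FPKM in DKO and 290 and 330.4 in WT, with KO from 117 to 312.5. The elongases of very long chains, Elovl1 and Elovl4, were abundant and variable, with Elovl1 at 1115 and 631 FPKM in DKO and 1157 and 1224 in WT, and Elovl4 at 332 and 221 in DKO and 359 and 390 in WT. Both were lowest in KO replicate 1, at 470 and 157 FPKM, which also had a low granular sum.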

How the data were processed

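RNA was sequenced from E18.5 epidermis in 9 libraries, grouped by the sample titles. Per the submitters' processing notes and the paper's methods, the authors mapped paired reads to mm10 with TopHat 1.4.1 and made the deposited FPKM with Cuffdiff 2.2.0; the options that scaled libraries against each other are not given in the sources used here. The deposited FPKM holds no counts per gene, so no counting interval was possible. The replicates were separate embryos.

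log2(FPKM + 1) of all 9 libraries was fitted in 1 model with limma 3.58.1 (R 4.3.3), with an intensity trend and no covariate, over genes averaging above 0.1 FPKM in at least 1 genotype (5 residual degrees of freedom). Each of 5 comparisons was adjusted by Benjamini-Hochberg over all 16897 genes. With 2 libraries against 2, an exact permutation test of 1 gene cannot go below 0.333. The members, lists and tests were chosen with earlier results of these data known. Genes are named where they were called, where DKO and WT did not overlap with a ratio of at least 1.5, or where they are regulators or rate-controlling enzymes; every other member described singly, such as Mvd, Idi1 and Nsdhl, was chosen after its values were seen. Equal replicate numbers did not pair libraries. The alternatives were 10 other settings and leaving out each of the 9 libraries; the medians of gene groups with a library left out were added after seeing the data. Gene positions are from GENCODE. Tables and plots were made in Python 3.11.15 (matplotlib 3.10.9, numpy 2.4.6, pandas 2.3.3).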

Additional observations from a re-analysis of the deposited data

How the results depend on the processing

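Of the 33 genes, 0 were called by limma in any comparison, with 5, 3, 0, 4 and 2 at an unadjusted p below 0.05 in DKO versus WT, KO versus WT, KH versus WT, DKO versus KO and DKO versus KH. Weighting the libraries gave 1 call in DKO versus WT (Fdps) and 556 over all genes in place of 123; fitting only DKO and WT gave 400, rescaling to TPM 178, and leaving out WT replicate 1 or 2 gave 65 or 54. Rescaling to TPM gave 2 genes below WT in KH (4 before), 3 below KO in DKO (1 before) and 11 below KH in DKO (6 before, where TPM moved the median of all genes by -0.11), and median ratio scaling gave 1 gene above KH in DKO (2 before). With 1 library left out, the median difference ran from -0.28 to -0.04 in DKO versus WT, and the genes apart numbered 6 to 11 above in DKO versus WT, 0 to 3 above and 5 to 21 below in KO versus WT, 5 to 15 above and 4 to 17 below in KH versus WT, 6 to 14 above and 1 to 7 below in DKO versus KO, and 2 to 9 above and 6 to 18 below in DKO versus KH. In DKO versus WT the number below rose as well, without DKO replicate 1. Leaving out 1 of 2 libraries makes non-overlap easier by construction. Deviations of equally numbered DKO and WT libraries correlated at 0.126, KH and WT at -0.23, and KO and WT at 0.039 and -0.413, so the numbers were not taken as pairs. With the replicate number as a block, 0 of the 33 genes were called in DKO versus WT, and 67 of all genes. FPKM carries no counts per gene, and with 2 or 3 libraries per genotype the standard errors of 0.16 to 0.51 give most genes a 95% interval that spans differences in both directions.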
